A study of Homo sapiens and Mus musculus with 16 samples.

Results

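The TRIM (tripartite motif) family genes were taken as every row whose symbol was TRIM, a number and at most 1 letter, with a value above 0 in at least 1 library. This gave 113 genes of the 112509 in the tables of 2 cell lines, 57 of 58713 in MDA-MB-231 and 56 of 53796 in CT26. A further 17 human and 12 mouse rows with such a symbol were listed at 0 in all 8 libraries of their line. MDA-MB-231 is a human breast cancer line without hormone receptors, and CT26 comes from a mouse colon carcinoma. For both lines 4 RNA-seq libraries of total RNA came from wild type cells and 4 from cells in which the gene of the checkpoint ligand PD-L1 had been knocked out with a lentiviral CRISPR system, per the labels' protocols. MDA-MB-231 cells grew in DMEM and CT26 cells in RPMI 1640, both with serum and antibiotics. Whether the knockout cells were 1 clone or a pool, and whether the wild type cells had received a control virus, the sources used here do not give. They also do not say whether each library had a culture of its own, so p-values reflect the scatter of these libraries alone, and that scatter may be technical.

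TRIM proteins share an N-terminal RING finger, 1 or 2 B-box zinc fingers and a coiled coil, followed by a C-terminal domain that differs between members. Most act as E3 ubiquitin ligases, which attach ubiquitin to other proteins through the RING finger. Many members take part in antiviral defence, where they act in nucleic acid sensing or on viruses themselves and are often induced by interferon, while others work in chromatin silencing, at microtubules or at intracellular membranes. PD-L1 is itself an interferon-induced gene in many tumour cells.

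Transcript levels were FPKM values that the authors deposited, which are fragment counts scaled to transcript length and to the size of the library. A gene was tested where at least 4 of a line's 8 libraries had at least 1 FPKM, and log2 fold changes of knockout over wild type were computed on log2(FPKM + 1), a scale that understates the change of low genes. A gene was said to rise or fall where limma's p, adjusted over all genes tested in its line, was below 0.05. The tested genes numbered 14450 in MDA-MB-231 and 11342 in CT26. Each line has its own table and normalization, and no level was compared across lines.

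The targeted transcript was measured first. CD274 read 12.3, 11.2, 12.5 and 12.8 FPKM in the wild type of MDA-MB-231 and 9.93, 11.6, 8.19 and 12.5 FPKM in the knockout. These groups overlapped, and the difference did not pass (log2 fold change -0.20, exact permutation p = 0.229). Cd274 read 1.5, 1.49, 1.43 and 1.23 FPKM in the wild type of CT26 and 0.548, 0.445, 0.569 and 0.543 FPKM in the knockout. Every knockout library was below every wild type library (log2 fold change -0.66, exact permutation p = 0.0286, the smallest that 70 assignments give). Transcript levels alone do not show whether the protein was lost.

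The lines were checked against marker genes. MDA-MB-231 libraries held VIM, CD44, KRT8 and KRT18 at 212 FPKM or more, with ESR1 and PGR below 1 FPKM. VIM was higher in the knockout, at 1095 to 1123 and 2462 to 2634 FPKM, while CD44 was lower (1028 to 1131 and 311 to 337 FPKM), as were KRT8, KRT18 and ERBB2. Of the CT26 markers, Vim was at 3682 FPKM or more and Krt18 at 30.4 to 34.8 FPKM, but Epcam was listed at 0 in all 8 libraries and Krt8 and Vil1 were below 1 FPKM in each. Krt20 was higher in the knockout (1.69 to 1.85 and 9.72 to 11.4 FPKM). The part of these markers in the results was not tested. Depth read from low FPKM values was 17.6 to 22.7 M fragments (M, mega) in the wild type and 9.52 to 14.6 M in the knockout of MDA-MB-231. In CT26 it was 0.799 to 1.14 times that of wild type replicate 1 in the wild type and 0.926 to 2.49 times in the knockout. Low members therefore carried more counting error in the MDA-MB-231 knockout, and the part of depth in the results was not tested.

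In the MDA-MB-231 table, 40 of the 57 members passed the filter on low values and 17 did not. TRIM29 and TRIM22 passed through their wild type libraries alone, so these had to differ, and both are among the lower members counted below. Of the 40, 11 rose and 15 fell in the knockout, beside 42.6% and 25.7% of all genes tested, and 68.2% for both directions together. The median log2 fold change was -0.12 over the 40 members and 0.18 over all genes. Upper-quartile scaling moved the median of all genes to -0.01, and the members then split into 7 higher and 20 lower (all genes 4736 and 4851, in place of 6149 and 3711). The changes given for this line are as deposited, so the median of 0.18 over all genes is not subtracted from them. The groups did not overlap for 22 members, 8 higher and 14 lower in the knockout, beside 39.1% and 23.6% of genes (62.7% together). By at least 2-fold, 4 members rose and 5 fell, beside 11.6% and 9.95% of genes, so the share of members with large changes was close to the background.

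In CT26, 35 of the 56 members were tested and 21 were not. Of the 35, 6 rose and 15 fell, beside 22.3% and 33.5% of all genes (55.8% in both directions). The median log2 fold change was -0.13 over the members and -0.06 over all genes, and upper-quartile scaling moved the latter to 0.03, with 6 members higher and 10 lower (all genes 3316 and 2840, in place of 2534 and 3794). The groups did not overlap for 21 members, 6 higher and 15 lower in the knockout, beside 20.3% and 31.1% of genes (51.5% together). By 2-fold or more on the log2(FPKM + 1) scale and past the threshold 1 member fell, Trim30a, beside 1.91% of genes, and 0 members rose in limma, beside 1.94% (3.85% together).

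**Figure D1:**
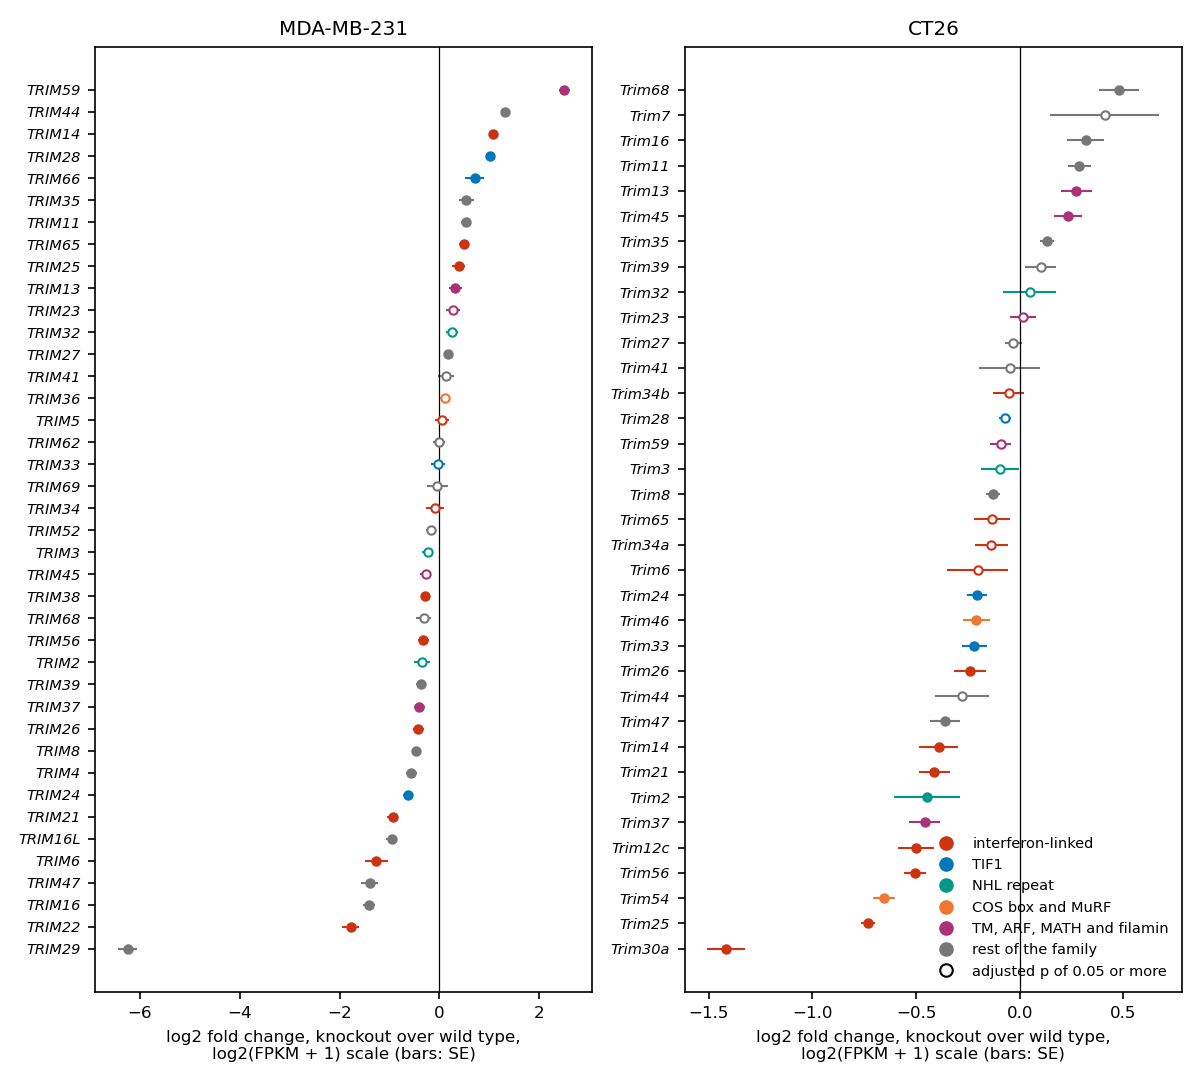
Log2 fold change of knockout over wild type for each tested member of the family, 40 in MDA-MB-231 (left) and 35 in CT26 (right), with bars for the SE from limma and colours for the role of the member. Filled points passed at an adjusted p below 0.05. TRIM29 lies far to the left at -6.25 and TRIM59 to the right at 2.5, while all CT26 members lie between -1.41 and 0.48.

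The transcript levels of the family were very unequal. In the MDA-MB-231 wild type 2 members, TRIM28 and TRIM8, stood at 100 FPKM or more, 18 lay from 10 to below 100, 21 from 1 to below 10 and 16 below 1 FPKM. TRIM28 alone made up 45.5% ± 1.24 of the summed FPKM of the family in the wild type and 68.2% ± 0.449 in the knockout (SD, n = 4 per group). The sum over all members was 1306 ± 36.1 FPKM in the wild type and 1753 ± 55.3 FPKM in the knockout, whereas without TRIM28 it was 711 ± 29 and 557 ± 12.9 FPKM. In the CT26 wild type Trim28 alone was above 100 FPKM, with 17 members from 10 to below 100, 18 from 1 to below 10 and 20 below 1 FPKM. Its share of the sum was 47.6% ± 0.514 in the wild type and 50.3% ± 0.763 in the knockout.

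Among the 11 interferon-linked and antiviral members tested in MDA-MB-231, 6 fell, 3 rose and 2 did not pass, with a median log2 fold change of -0.29. Of all genes tested in this line 25.7% fell and 42.6% rose, with a median of 0.18. TRIM22, TRIM6, TRIM21, TRIM26, TRIM38 and TRIM56 were lower, and TRIM14, TRIM65 and TRIM25 were higher. TRIM22 (ENSG00000132274), an interferon-induced factor that restricts several viruses, read 2.19, 3.08, 3.63 and 1.91 FPKM in the wild type. In the knockout it was listed at 0 in 3 libraries and read 0.270 FPKM in replicate 1. No knockout library came near a wild type one. The log2 fold change was -1.78 with SE 0.17 and limma adjusted p = 1.75e-05, and it was -4.29 with a pseudocount of 0.1 and -0.60 with 5, so its size is set by the pseudocount. TRIM22 passed the filter through its wild type libraries alone, so the separation and the p-value are no support of their own.

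TRIM6 (ENSG00000121236), a ligase that builds free ubiquitin chains in interferon signalling, read 7.04, 7.19, 11.1 and 9.06 FPKM in the wild type and 1.87, 4.99, 2.86 and 2.66 FPKM in the knockout (log2 fold change -1.26, SE 0.23, limma adjusted p = 0.00107). Its groups did not overlap, with knockout replicate 2 the highest of its group. TRIM6 shares a deposited locus with TRIM34 and a read-through transcript that joins both genes, so reads may be split between them. TRIM34 itself stayed at 3.45 ± 0.384 and 3.31 ± 1.18 FPKM (SD, n = 4 per group).

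TRIM21 (ENSG00000132109), the cytosolic antibody receptor that sends antibody-coated virus to the proteasome, read 9.21, 11.3, 10.4 and 9.79 FPKM in the wild type. The knockout libraries read 5.73, 5.11, 4.58 and 3.97 FPKM, all below the wild type (log2 fold change -0.94, SE 0.11, limma adjusted p = 7.57e-05). TRIM14 (ENSG00000106785), a member without a RING finger that serves as an adaptor at mitochondria in RNA sensing, went the other way. It read 7.32, 8.10, 7.72 and 8.40 FPKM in the wild type and 17.0, 17.9, 19.5 and 16.7 FPKM in the knockout (log2 fold change 1.08, SE 0.075, limma adjusted p = 2.47e-06). NANS, which overlaps TRIM14 on the opposite strand, rose by far less, from 60.5 ± 2.0 to 72.5 ± 4.10 FPKM.

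The other interferon-linked members changed by less. TRIM65, a ligase of the RNA sensor MDA5, read 14.7 to 19.6 FPKM in the wild type and 22.4 to 25.8 FPKM in the knockout, without overlap. TRIM25, the ligase of the RNA sensor RIG-I, read 35.0 to 48.8 FPKM and 43.3 to 59.2 FPKM, with overlap. Its log2 fold change of 0.38 (SE 0.13, limma adjusted p = 0.0272) lost its call with upper-quartile scaling (0.17), with quantile normalization (0.16), after centring on its surroundings (0.22), and without wild type replicate 1 or 2 or knockout replicate 2, 3 or 4 (0.32 to 0.39). The call was also lost without the filter on low values. TRIM56, which acts in DNA and RNA sensing, fell from 8.57 ± 0.545 to 6.72 ± 1.21 FPKM (log2 fold change -0.32, SE 0.11, limma adjusted p = 0.0335). That call was lost without any 1 of 6 libraries, all but wild type replicate 2 and knockout replicate 4, and without the filter on low values. The authors' deposited table gave TRIM56 a q-value of 0.140. TRIM5, the retrovirus restriction factor, read 5.11 ± 0.796 and 5.34 ± 0.853 FPKM and changed sign with the scaling, from 0.05 to -0.13 with upper-quartile scaling. It overlaps TRIM22 on the opposite strand, and the sources used here do not say if counting used the strand.

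The leukocyte marker list was lower in its sum in the knockout of this line. Of its 10 genes, 8 were below 1 FPKM in all 8 libraries and CD3E and NKG7 among them were listed at 0 throughout, while the summed level was 6.89 to 9.80 FPKM in the wild type and 0.694 to 1.72 FPKM in the knockout, mostly from CD14 and CSF1R. Of fibroblast and endothelial markers 3 of 7 were tested, and 2, COL1A1 and COL1A2, fell, beside 25.7% of all genes tested. COL1A2, CD14 and CSF1R passed the filter on low values through their wild type libraries alone, so these had to be lower. In a bulk library fewer cells of a type and less RNA per cell cannot be told apart, and the part of these markers in the result was not tested.

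**Figure D2:**
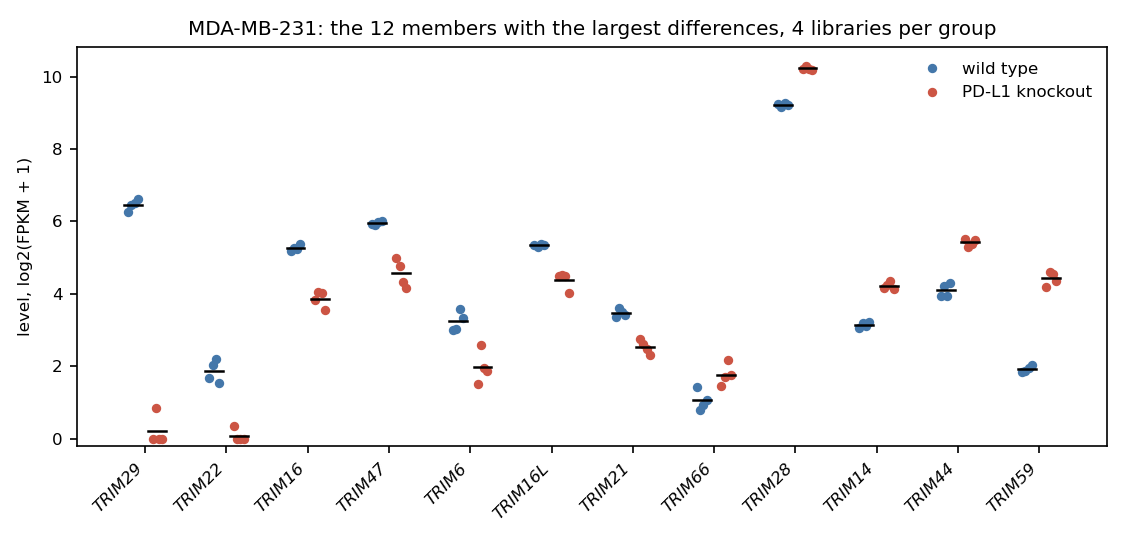
Levels as log2(FPKM + 1) in MDA-MB-231, 1 point per library, 4 wild type (blue) and 4 knockout (red), with black bars at the group means. Shown are the 12 members with the largest differences among those past the threshold whose groups do not overlap, so separate groups were a condition of the choice. TRIM29 and TRIM22 sit at or near 0 in the knockout.

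In CT26, 7 of the 11 tested interferon-linked members fell and 4 did not pass, with a median log2 fold change of -0.39. In limma 0 of them rose, also at an unadjusted p below 0.05. Of all genes tested in this line 33.5% fell and 22.3% rose, with a median of -0.06. Of all members in CT26, Trim30a (ENSMUSG00000030921), a mouse member known to restrain NF-kappaB signalling from Toll-like receptors, differed most. It read 32.5, 23.3, 26.4 and 27.2 FPKM in the wild type and 9.86, 8.89, 10.0 and 9.52 FPKM in the knockout. The knockout libraries lay close together and far below the wild type (log2 fold change -1.41, SE 0.092, limma adjusted p = 5.69e-06).

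Trim25 (ENSMUSG00000000275) read 36.3, 34.7, 35.7 and 36.7 FPKM in the wild type and 21.3, 20.7, 21.7 and 21.0 FPKM in the knockout (log2 fold change -0.73, SE 0.034, limma adjusted p = 1.03e-06). Trim56 (ENSMUSG00000043279) fell from 21.3 ± 1.16 to 14.7 ± 0.748 FPKM (SD, n = 4 per group), a log2 fold change of -0.50 with SE 0.054 and limma adjusted p = 8.68e-05. Trim12c (ENSMUSG00000057143), a mouse relative of TRIM5, fell from 6.84 ± 0.367 to 4.57 ± 0.649 FPKM (log2 fold change -0.50, SE 0.086, limma adjusted p = 0.00129). In each of these the groups were separate. The genes around Trim56 were lower too, and once their median of -0.34 was subtracted its log2 fold change was -0.17 and still passed.

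Trim21 (ENSMUSG00000030966) read 11.3, 10.2, 11.9 and 9.84 FPKM in the wild type and 7.30, 7.53, 8.57 and 8.14 FPKM in the knockout (log2 fold change -0.41, SE 0.074, limma adjusted p = 0.00173). Trim14 (ENSMUSG00000039853) read 12, 9.69, 9.0 and 9.57 FPKM and 6.80, 7.85, 6.80 and 8.22 FPKM (log2 fold change -0.39, SE 0.095, limma adjusted p = 0.00813). Neither overlapped, although the gap for Trim14 was narrow, and in the authors' deposited table its q-value was 0.278. Coro2a, which shares the deposited locus of Trim14, fell from 13.8 ± 0.785 to 9.04 ± 1.87 FPKM, and Nans at the same locus did not pass. Trim26 overlapped between groups, and its fall of -0.24 lost its call with upper-quartile scaling (-0.15), quantile normalization (-0.16), centring on its surroundings (-0.15) and without wild type replicate 3 or 4 or knockout replicate 1, 3 or 4. The call was also lost without the filter on low values and with a replicate block. Trim6, Trim34a, Trim34b and Trim65 did not pass, and Trim34b turned its sign with upper-quartile scaling. Trim6 read 2.65, 3.92, 3.76 and 3.83 FPKM in the wild type and 2.76, 2.09, 3.48 and 3.52 FPKM in the knockout (log2 fold change -0.20, SE 0.15, limma adjusted p = 0.276).

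Trim5, Trim38 and 3 further paralogs of Trim30a were too low to test. Trim30c read 0.277 to 0.561 FPKM in the wild type, and 0.0704 and 0.140 FPKM in knockout replicates 1 and 4, with 0 listed in the others. Trim30d read 0.302 to 0.408 FPKM and 0.139 to 0.326 FPKM, and Trim30b read at most 0.0373 FPKM. These genes are close copies, so their reads may be shared with Trim30a. Of 9 leukocyte genes in CT26, 8 were below 1 FPKM, while Cd14 was higher in the knockout, at 16.0 to 19.0 and 49.6 to 56.5 FPKM. The part of these markers in the results was not tested.

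**Figure D3:**
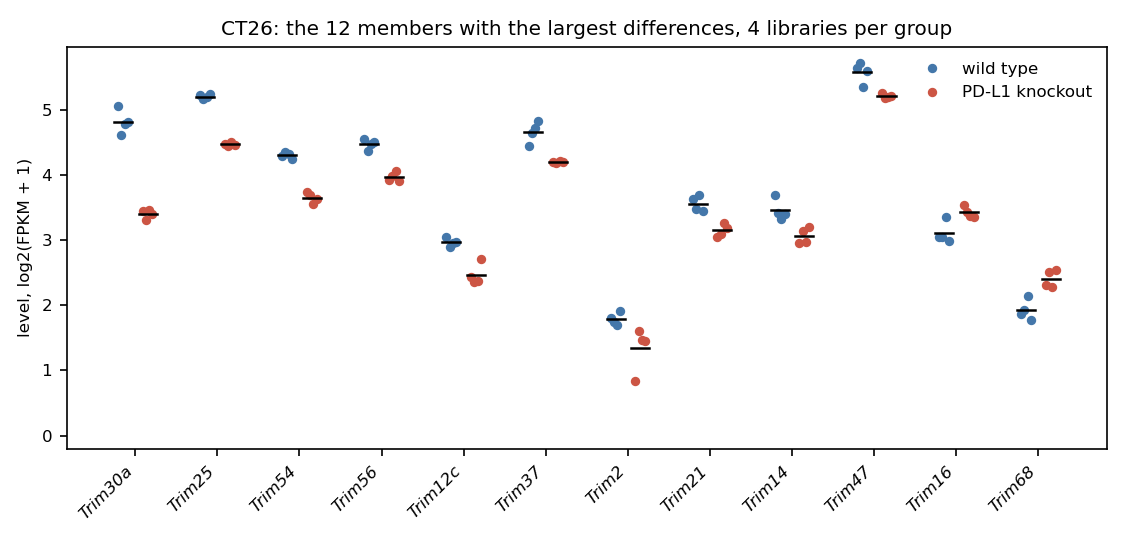
Levels as log2(FPKM + 1) in CT26, 1 point per library, 4 wild type (blue) and 4 knockout (red), with black bars at the group means. Shown are the 12 members with the largest differences among those past the threshold whose groups do not overlap. Separate groups were thus a condition of the choice, and Trim7, with overlap, is left out. The groups of Trim30a and Trim25 are the widest apart.

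Of the antiviral members several stand close together on 1 chromosome. In the human genome (hg38, GENCODE 29 coordinates) TRIM21 lies at chr11:4384897-4393696, TRIM68 at chr11:4598672-4608259, TRIM6 at chr11:5596109-5612958, TRIM34 at chr11:5619764-5644398, TRIM5 at chr11:5663557-5938619, TRIM22 at chr11:5689689-5737089 and TRIM3 at chr11:6448613-6474459. Neighbours there did not move alike: TRIM6 and TRIM22 fell with log2 fold changes of -1.26 and -1.78, while TRIM34 and TRIM5, which stand between or across them, were at -0.08 and 0.05. The median log2 fold change of the other tested genes within 10 Mb on either side was -0.20 around TRIM6 and TRIM22. In the mouse (mm10, deposited loci) the cluster spans Trim6 at chr7:104218793-104235152, Trim12c at chr7:104338754-104353362 and Trim30a at chr7:104409025-104465193. Its tested members ranged from -0.05 for Trim34b, which turned sign with upper-quartile scaling, to -1.41 for Trim30a, in surroundings with a median of -0.07.

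The promoters of the human members were searched for the core of the interferon-stimulated response element, which is GAAA, any 2 bases and GAAA again, and for the STAT dimer site TTCNNNGAA, on both strands. The windows were those of RefSeq (GRCh38.p14), from 250 bases before to 50 bases after a gene's start, and 43 of the 57 members had one. The response element core stood in 9 of the 43 (20.9%) and in 4.38% of 27305 genes with a window. TTCNNNGAA stood in 5 of the 43 (11.6%) and in 9.38% of genes. The 9 members were not of 1 direction: TRIM14 and TRIM44 rose, TRIM16, TRIM21 and TRIM26 fell, and TRIM2, TRIM5, TRIM34 and TRIM69 did not pass. TRIM22 is not among the windows used. A match is a description of the letters, not a bound site. The following 30-base stretches are shown because they stand before or in members that rose, that fell or that did not pass, on the strand of the gene, with the motif in capitals. TTTC, 2 bases and TTTC is the same motif read on the opposite strand, and positions count the start base as 0.
TRIM14, which rose, chr9:98119229-98119258 (minus strand, motif at -26 to -17 from the start): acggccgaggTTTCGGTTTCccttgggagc
TRIM44, which rose, chr11:35662730-35662759 (plus strand, motif at -35 to -26): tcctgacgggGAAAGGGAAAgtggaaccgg
TRIM21, which fell, chr11:4393666-4393695 (minus strand, motif at 17 to 26 past the start): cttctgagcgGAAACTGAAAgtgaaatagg
TRIM26, which fell, chr6:30213581-30213610 (minus strand, motif at -194 to -185): tcccgcctgaTTTCAGTTTCcatttcgctg
TRIM16, which fell, chr17:15683012-15683041 (minus strand, motif at -80 to -71): acagaggtaaGAAATAGAAAtaaagggtcc
TRIM5, which did not pass, chr11:5685082-5685111 (minus strand, motif at -27 to -18): atagtttatcTTTCACTTTCctgccctgag
In TRIM21 and TRIM26 a second match overlaps the one shown.

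The TIF1 members are chromatin regulators that carry a PHD finger and a bromodomain. TRIM28 (ENSG00000130726, chr19:58544091-58550722), the corepressor through which KRAB zinc finger proteins silence retroelements, was the most abundant member of the family in MDA-MB-231. It read 602, 568, 612 and 596 FPKM in the wild type and 1184, 1261, 1173 and 1166 FPKM in the knockout. The knockout mean was 2.01 times the wild type mean, and the groups were far apart (log2 fold change 1.01, SE 0.040, limma adjusted p = 8.29e-08). The genes around it had a median of 0.02. With upper-quartile scaling it was 0.79 and still passed.

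TRIM24 (chromosome 7), a coregulator of nuclear receptors and ligase of p53, read 16.2 to 20.2 FPKM in the wild type and 9.63 to 12 FPKM in the knockout, without overlap (log2 fold change -0.63). TRIM33, which acts on SMAD proteins of TGF-beta signalling, did not pass, at 20.8 ± 4.09 and 20.1 ± 1.85 FPKM, with wild type replicate 1 at 14.7 FPKM far below the others of its group. TRIM66 (ENSG00000166436), a relative that binds heterochromatin protein 1, read 1.71, 0.741, 0.908 and 1.12 FPKM in the wild type and 1.74, 2.25, 3.54 and 2.37 FPKM in the knockout. Its groups touched without overlapping (log2 fold change 0.71, SE 0.19, limma adjusted p = 0.00860). TRIM66 overlaps RPL27A, an abundant ribosomal protein gene at 1937 ± 101 and 2015 ± 94.7 FPKM on the opposite strand, and the authors' deposited table gave TRIM66 a q-value of 0.159.

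In CT26 2 of 3 tested TIF1 members fell and 0 rose in limma, also at an unadjusted p below 0.05. Of all genes tested 33.5% fell and 22.3% rose. Trim24 fell from 11.1 ± 0.452 to 9.50 ± 0.386 FPKM and Trim33 from 20.3 ± 1.58 to 17.3 ± 0.717 FPKM (log2 fold changes -0.21 and -0.22). The call of Trim33 was lost with upper-quartile scaling (-0.13), with quantile normalization (-0.15) and after centring on its surroundings (-0.17), and that of Trim24 after that centring (-0.12). Trim28 read 507, 506, 508 and 538 FPKM in the wild type and 490, 501, 483 and 486 FPKM in the knockout. Every knockout library was below every wild type one, but the difference did not pass (log2 fold change -0.07, SE 0.028, limma adjusted p = 0.0564), and its sign turned with upper-quartile scaling (0.022) and after centring on its surroundings (0.012).

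Partners of TIF1 proteins in MDA-MB-231, such as HP1 proteins, the NuRD remodeller and SMADs, rose in 7 of 13 tested genes and fell in 1, with a median log2 fold change of 0.40, beside 42.6% higher, 25.7% lower and a median of 0.18 over all genes. CBX3, an HP1 protein, went from 111 ± 2.75 to 168 ± 3.54 FPKM, and CHD4, the NuRD ATPase, from 124 ± 4.94 to 272 ± 29.2 FPKM. SMAD4 went from 24.5 ± 3.40 to 47.3 ± 0.635 FPKM and SMAD3 from 48.2 ± 3.48 to 26.4 ± 4.04 FPKM. In CT26 1 of 12 rose and 5 fell (median -0.11), beside 22.3%, 33.5% and -0.06 over all genes. Smad2 fell from 53.6 ± 2.21 to 23.5 ± 1.71 FPKM, and Mdm2, the p53 ligase, rose from 42.6 ± 3.18 to 68.1 ± 1.90 FPKM.

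Of the membrane-anchored, ARF-domain, MATH-domain and filamin-domain members, 2 rose, 1 fell and 2 did not pass in each line. All genes rose in 42.6% and fell in 25.7% of cases in MDA-MB-231, and in 22.3% and 33.5% in CT26. TRIM59 (ENSG00000213186, chr3:160432445-160485773), a ligase anchored in intracellular membranes, rose more than any other member in MDA-MB-231. It read 2.57, 2.65, 2.87 and 3.13 FPKM in the wild type and 17.2, 23.4, 22.6 and 19.4 FPKM in the knockout. The knockout mean was 7.36 times the wild type mean (log2 fold change 2.5, SE 0.11, limma adjusted p = 1.58e-07). The 57 other tested genes within 10 Mb on either side had a median of 0.87, and after that was subtracted TRIM59 was at 1.63 and still passed. SMC4, a condensin subunit that overlaps TRIM59 on the opposite strand, rose from 139 ± 18.0 to 337 ± 36.1 FPKM, and without strand, reads of either gene may be counted for the other. In CT26 Trim59 read 38.4 to 43.2 FPKM and 36.8 to 40.9 FPKM and did not pass (log2 fold change -0.09, SE 0.049, limma adjusted p = 0.145), but passed after centring on its surroundings (-0.14).

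TRIM37, a MATH-domain ligase that limits centriole assembly, fell in both lines. It read 19.0, 23.7, 20.5 and 20.2 FPKM in the MDA-MB-231 wild type and 13.3, 14.8, 18.9 and 15.4 FPKM in the knockout (log2 fold change -0.40, SE 0.11, limma adjusted p = 0.0108), with a narrow gap. For that line the authors' deposited table gave TRIM37 a q-value of 0.162. Trim37 (ENSMUSG00000018548) read 20.8, 23.9, 25.4 and 27.4 FPKM in the CT26 wild type and 17.3, 17.2, 17.6 and 17.4 FPKM in the knockout (log2 fold change -0.46, SE 0.076, limma adjusted p = 0.00103). The knockout libraries of CT26 had an SD of 0.194 FPKM. TRIM13, a ligase of the endoplasmic reticulum, rose in both lines as deposited (0.32 and 0.27), but it lost its call and turned sign in both after centring on its surroundings (-0.16 and -0.03), where the medians were 0.48 and 0.31. In MDA-MB-231 its call was also lost with upper-quartile scaling (0.12), with quantile normalization (0.19) and without wild type replicate 1, 2 or 3 or knockout replicate 1, 2 or 4. Without the filter on low values it was lost in both lines. TRIM23, which carries an ARF GTPase domain, did not pass, but did without wild type replicate 3 (0.39). TRIM45 did not pass (-0.27), but did with upper-quartile scaling (-0.42), in limma without the trend and without wild type replicate 2 (-0.35). In CT26 Trim23 did not pass, and Trim45 rose from 5.13 ± 0.434 to 6.19 ± 0.313 FPKM.

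The NHL-repeat members bind RNA or act in neurons and embryos. TRIM2, TRIM3 and TRIM32 did not pass in MDA-MB-231, at log2 fold changes of -0.35, -0.24 and 0.25, so 0 of 3 passed in limma, also at an unadjusted p below 0.05. Of all genes 68.2% passed at the adjusted threshold. TRIM2 (SE 0.16, limma adjusted p = 0.0876) and TRIM3 passed with upper-quartile scaling, at -0.51 and -0.44, and TRIM2 also without knockout replicate 3 (-0.47). TRIM3 also passed with quantile normalization (-0.34). Trim2 (ENSMUSG00000027993), a ligase of neurofilament light chain in neurons, read 2.49, 2.34, 2.23 and 2.78 FPKM in the CT26 wild type and 0.795, 2.03, 1.76 and 1.74 FPKM in the knockout. Knockout replicate 1 stood well below the rest of its group, and without it the log2 fold change was -0.28 in place of -0.45 (SE 0.16, limma adjusted p = 0.0415). The call was lost with upper-quartile scaling, after centring on its surroundings, and without any 1 of 6 other libraries, all 4 of the wild type and knockout replicates 3 and 4, and the authors' deposited table gave a q-value of 0.0889. A pseudocount of 0.1, no filter on low values and a replicate block also took the call away. Trim3 and Trim32 did not pass, and Trim71 read at most 0.205 FPKM.

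The microtubule-binding members with a COS box and the muscle RING finger proteins were mostly low. In MDA-MB-231 only TRIM36 was tested, and it did not pass, at 3.75 ± 0.294 and 4.14 ± 0.685 FPKM, and turned sign with upper-quartile scaling. TRIM9, best known in neurons, was not tested, since its knockout values of 1.29, 1.26, 0.908 and 1.49 FPKM reached 1 FPKM in 3 libraries only. Its wild type values were 0.188, 0.176, 0.0962 and 0.0574 FPKM, far below all of them. TRIM54 and TRIM55, both muscle RING finger genes, read 0.108 to 0.370 FPKM and 0.10 to 0.327 FPKM in the wild type and were listed at 0 in all 4 knockout libraries, while TRIM63, the third of them, read 0.454 to 0.682 FPKM and 0.0670 to 0.289 FPKM.

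In CT26 the muscle gene Trim54 (ENSMUSG00000062077) was well expressed. It read 18.6, 19.5, 19.0 and 18.0 FPKM in the wild type and 12.4, 11.9, 10.7 and 11.3 FPKM in the knockout (log2 fold change -0.65, SE 0.052, limma adjusted p = 1.70e-05). All knockout libraries were lower, although the genes around Trim54 had a median of 0.37. After that was subtracted it stood at -1.02 and still passed. Trim46, which bundles microtubules at the axon initial segment, fell from 4.76 ± 0.146 to 4.0 ± 0.336 FPKM, a call lost with upper-quartile scaling (-0.13), after centring on its surroundings (-0.16) and without wild type replicate 2 or 4 or knockout replicate 1 or 2. It was also lost without the filter on low values and with a replicate block, and the authors' deposited table gave a q-value of 0.529.

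Among the 16 other members tested in MDA-MB-231, 4 rose, 7 fell and 5 did not pass (median log2 fold change -0.24). The shares over all genes were 42.6% higher and 25.7% lower (median 0.18). TRIM29 (ENSG00000137699, chr11:120111275-120185529), a member without a RING finger that marks basal epithelial cells and binds p53, changed most in the family. It read 75.4, 87.4, 90.0 and 96.6 FPKM in the wild type, and in the knockout it was listed at 0 in replicates 1, 3 and 4 and at 0.801 FPKM in replicate 2. In the wild type it was among the 3 most abundant members of the family (log2 fold change -6.25, SE 0.20, limma adjusted p = 2.45e-08). TRIM29 passed the filter through its wild type libraries alone, so this p-value is no support of its own. The log2 fold change was -8.97 with a pseudocount of 0.1 and -4.15 with 5, so it gives no size of the fall, and the q-value for TRIM29 was 0.305 in the authors' deposited table. Its surroundings had a median of 0.14.

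TRIM16 (ENSG00000221926, chr17:15627960-15684311) and TRIM16L (ENSG00000108448, chr17:18697998-18736118) fell together. TRIM16, which lacks a RING finger and helps clear damaged lysosomes by autophagy, read 35.6, 37.7, 36.6 and 40.8 FPKM in the wild type and 13.2, 15.4, 15.3 and 10.7 FPKM in the knockout (log2 fold change -1.41, SE 0.11, limma adjusted p = 5.24e-06). TRIM16L read 39.6, 38.4, 40.4 and 40.0 FPKM and 21.6, 22.1, 21.6 and 15.2 FPKM (log2 fold change -0.96, SE 0.11, limma adjusted p = 6.84e-05). In both genes knockout replicate 4 was the lowest library. They are near-identical copies, so reads may be shared between them, which was not tested. The genes around them had medians of 0.19 and 0.28.

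TRIM47 (ENSG00000132481, chr17:75874161-75878575), a ligase first described in brain tumours, read 60.4, 59.4, 62.1 and 63.0 FPKM in the wild type and 31.1, 26.0, 19.1 and 17.1 FPKM in the knockout. The groups were far apart, and the knockout libraries were spread more widely than the wild type (log2 fold change -1.39, SE 0.17, limma adjusted p = 7.59e-05). TRIM65 stands next to it at chr17:75880335-75897003 and rose, as given above. TRIM44 (ENSG00000166326, chr11:35662805-35818007), which has a ubiquitin-binding zinc finger in place of the RING finger, read 14.3, 17.4, 14.5 and 18.9 FPKM in the wild type and 44.5, 38.6, 40.6 and 44.3 FPKM in the knockout (log2 fold change 1.32, SE 0.099, limma adjusted p = 3.92e-06). The genes around TRIM44 had a median of 0.43, and after its subtraction the log2 fold change was 0.89 and still passed.

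TRIM8, a regulator of SOCS1 and the member next in abundance after TRIM28 in the wild type, fell from 118 ± 5.22 to 85.3 ± 1.89 FPKM (log2 fold change -0.46), while the genes around it had a median of 0.45. TRIM4 read 7.72 to 10.2 FPKM in the wild type and 5.02 to 6.13 FPKM in the knockout, and fell by 0.56 on the log2 scale. TRIM11 rose from 11.5 ± 1.09 to 17.1 ± 2.06 FPKM, and TRIM35 from 4.68 ± 1.09 to 7.21 ± 1.02 FPKM, where TRIM35 lost its call with upper-quartile scaling (0.36). TRIM27 rose by 0.17 as deposited, lost its call without wild type replicate 2 or 3 or knockout replicate 2 or 3, and stood at -0.04 with upper-quartile scaling and with quantile normalization, but at 0.62, still past the threshold, after centring on its surroundings. With a replicate block its call was lost too. TRIM68 did not pass (log2 fold change -0.31, SE 0.15, limma adjusted p = 0.0983). Without knockout replicate 3, which at 3.78 FPKM was above all wild type libraries, it did (-0.45), as it did with upper-quartile scaling (-0.47). TRIM41, TRIM52, TRIM62 and TRIM69 did not pass, though TRIM52 did with upper-quartile scaling (-0.33) and after centring on its surroundings (-0.30), as did TRIM69 after that centring (-0.55 in place of -0.04).

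Members too low to test also differed in listed values. TRIM73 read 1.62, 0.702, 2.54 and 1.72 FPKM in the wild type and was listed at 0 in all 4 knockout libraries, but it has a close copy in TRIM74, which read at most 0.163 FPKM. TRIM61 read 0.565 to 0.797 FPKM and 0.0498 to 0.152 FPKM. TRIM7 overlapped, and TRIM10, TRIM17, TRIM31, TRIM50, TRIM58, TRIM72 and TRIM80P read at most 0.624 FPKM, in TRIM31.

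In CT26 the 11 other tested members split into 4 higher, 2 lower and 5 not passed (median log2 fold change 0.10). The shares over all genes were 22.3% higher and 33.5% lower (median -0.06). Trim47 (ENSMUSG00000020773) fell, at 48.9, 51.7, 40.0 and 47.3 FPKM in the wild type and 37.4, 35.3, 35.8 and 36.2 FPKM in the knockout (log2 fold change -0.36, SE 0.073, limma adjusted p = 0.00308). Trim47 and Trim65 share a deposited locus. Trim68 (ENSMUSG00000073968) rose most in CT26, from 2.66, 2.82, 3.40 and 2.43 FPKM to 3.95, 4.67, 3.88 and 4.82 FPKM (log2 fold change 0.48, SE 0.098, limma adjusted p = 0.00333). Its 4 knockout libraries were all higher. Trim16 (ENSMUSG00000047821) rose, from 7.30, 7.23, 9.21 and 6.89 FPKM to 10.7, 9.74, 9.39 and 9.22 FPKM, with wild type replicate 3 just below the lowest knockout library (log2 fold change 0.32, SE 0.088, limma adjusted p = 0.0150).

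Trim11 rose from 9.12 ± 0.342 to 11.4 ± 0.734 FPKM and Trim35 from 45.8 ± 1.51 to 50.2 ± 0.426 FPKM. For Trim35 the log2 fold change was 0.13 as deposited but -0.14 after centring on its surroundings, and it passed both ways. Trim8 fell from 37.0 ± 1.23 to 33.7 ± 0.507 FPKM (log2 fold change -0.13), but lost its call with upper-quartile scaling and with quantile normalization (-0.04 in each), and it passed in the opposite direction, at 0.33, after the median of -0.46 around it was subtracted. Trim44 did not pass (log2 fold change -0.28, SE 0.13, limma adjusted p = 0.102), nor did Trim7, Trim27, Trim39 and Trim41, but Trim7 did without wild type replicate 4 (0.65). Trim72, a membrane repair protein of muscle, was below the filter at 0.862, 1.09, 1.05 and 1.33 FPKM in the wild type and 0.419, 0.393, 0.233 and 0.137 FPKM in the knockout, with no overlap. Trim15, Trim17, Trim36, Trim40, Trim43a, Trim43b, Trim43c, Trim50, Trim63, Trim66, Trim67, Trim69, Trim75 and Trim80 read at most 0.309 FPKM, in Trim40.

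Members were also set beside the genes around them, as the median log2 fold change of the other tested genes within 10 Mb on either side. These medians ran from -0.45 to 0.87 around members in MDA-MB-231 and from -0.46 to 0.37 in CT26. With these medians subtracted, 9 members rose and 14 fell in MDA-MB-231 (all genes 4583 and 4560), and 5 rose and 11 fell in CT26 (all genes 2532 and 2626). On chromosome 6 of MDA-MB-231, TRIM38 (chr6:25962802-25991226), TRIM26 (chr6:30184455-30213427) and TRIM39 (chr6:30326479-30343729) fell with log2 fold changes of -0.29, -0.42 and -0.37, where the surrounding medians were -0.41, -0.44 and -0.44. After subtraction they stood at 0.12, 0.02 and 0.07, turned in sign, and none passed. TRIM27 (chr6:28903002-28923989), in the same region with a median of -0.45, stood at 0.17 as deposited and at 0.62 after subtraction, where it still passed, but turned sign with upper-quartile scaling and with quantile normalization. For TRIM29, TRIM16, TRIM47, TRIM28 and TRIM14 the log2 fold changes after subtraction were -6.38, -1.60, -1.44, 0.99 and 1.25, and all 5 passed. For TRIM29, which passed the filter on low values through its wild type libraries alone, that pass is no support of its own.

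**Figure D4:**
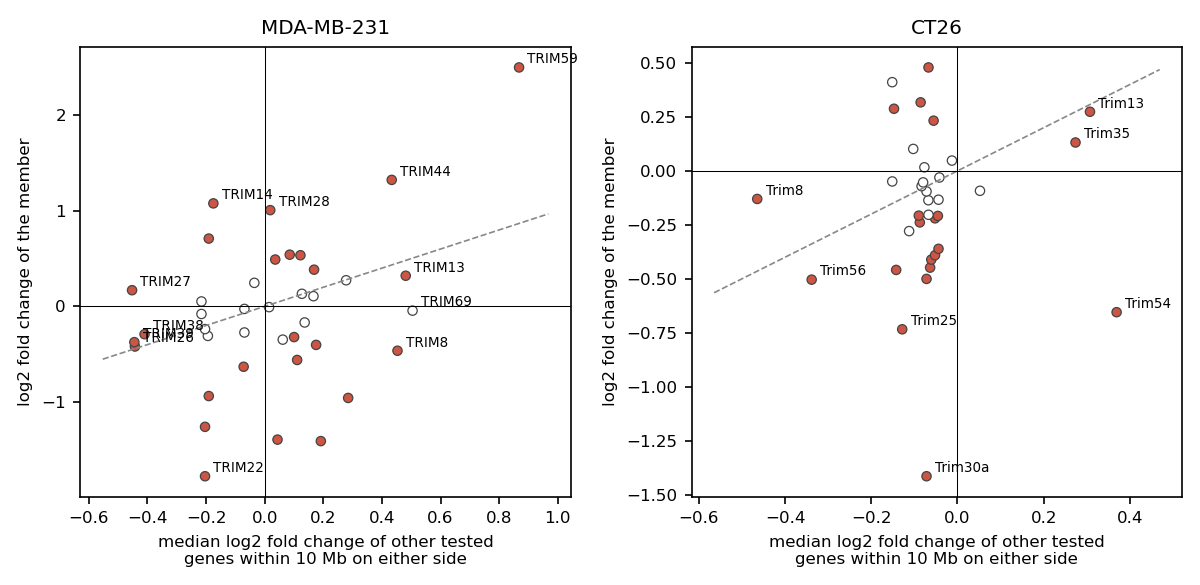
Log2 fold change of each tested member (vertical) against the median log2 fold change of the other tested genes within 10 Mb on either side (horizontal), in MDA-MB-231 (left, without TRIM29 at -6.25) and CT26 (right), with the dashed line where both are equal. Filled points passed at an adjusted p below 0.05. TRIM26, TRIM38 and TRIM39 lie near the line at medians of -0.41 to -0.44, and TRIM59 lies above it at a median of 0.87.

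Paired by symbol, 28 members were tested in both lines, which share no library. As deposited, TRIM11, TRIM13 and TRIM35 rose in both, and TRIM8, TRIM21, TRIM24, TRIM26, TRIM37, TRIM47 and TRIM56 fell in both. How many of all genes paired by symbol moved alike was not computed, so no trait of the family can be read from these lists. Of all genes tested, 68.2% passed in MDA-MB-231 and 55.8% in CT26. After centring on the surrounding genes, Trim35 and Trim8 passed with the opposite sign in CT26 (-0.14 and 0.33), TRIM13 turned sign without passing in both lines, TRIM26 passed in neither (0.023 and -0.15), and Trim24 lost its call in CT26. TRIM14 and TRIM25 rose in MDA-MB-231 and fell in CT26, and TRIM16 fell in MDA-MB-231 and rose in CT26. For TRIM14 the log2 fold changes were 1.08 and -0.39, for TRIM16 -1.41 and 0.32, and for TRIM25 0.38, lost with upper-quartile scaling, and -0.73. Another 5 members rose in MDA-MB-231 without passing in CT26, among them TRIM28, TRIM44 and TRIM59, and 4 members passed in neither line. The difference between lines was not tested.

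**Figure D5:**
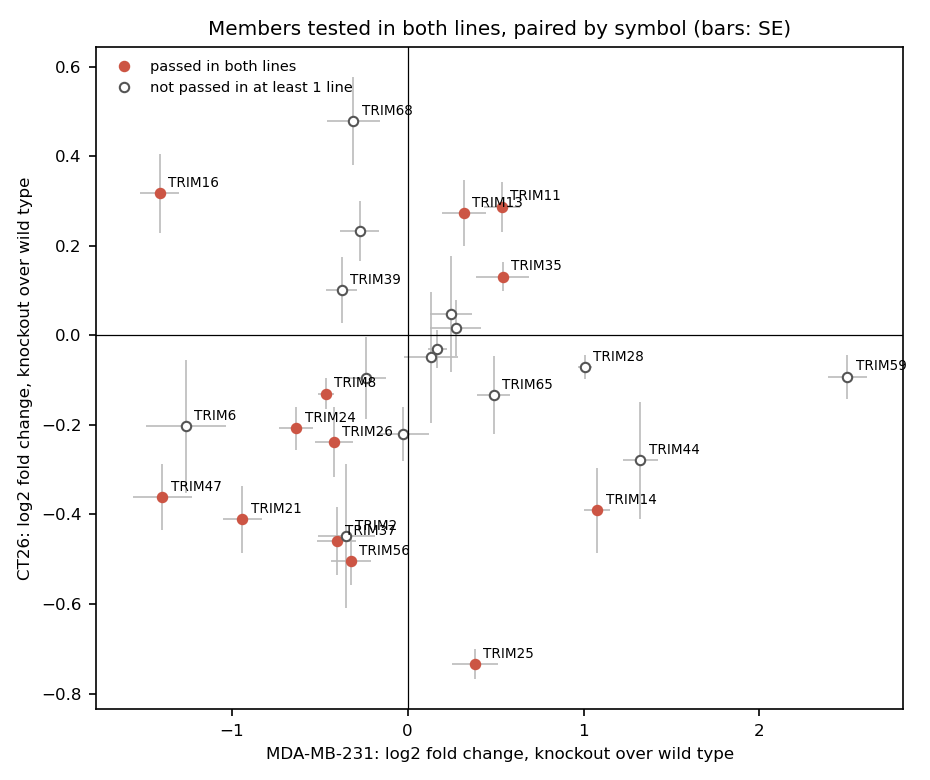
Log2 fold changes of the 28 members tested in both lines, MDA-MB-231 on the horizontal and CT26 on the vertical axis, with bars for the SE. Filled points passed in both lines, and the axes have different ranges. TRIM14 and TRIM25 lie at the lower right, TRIM16 at the upper left and TRIM47 and TRIM21 at the lower left.

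Genes that work with the family, or belong to it under other names, were counted in the same fits. Of 5 such family members tested in MDA-MB-231, 3 rose and 2 fell, beside 42.6% and 25.7% of all genes. TRIML2 read 0.846 ± 0.241 FPKM in the wild type and 9.07 ± 0.831 FPKM in the knockout. PML, which builds nuclear bodies and is TRIM19, fell from 37.2 ± 1.30 to 19.5 ± 0.902 FPKM, and MID2, the microtubule-binding TRIM1, from 2.68 ± 0.184 to 0.197 ± 0.238 FPKM. MID2 is among the 2 that fell, but it passed the filter on low values through its wild type libraries alone, so it had to be lower. In CT26 1 of 4 changed, beside 55.8% of all genes. This was Mid1, which fell from 3.41 ± 0.312 to 2.26 ± 0.532 FPKM, while Pml read 50.5 ± 3.76 and 54.1 ± 1.95 FPKM and did not pass.

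Genes of nucleic acid sensing, the process in which TRIM25, TRIM65, TRIM14 and TRIM56 act, fell in 9 of 15 cases and rose in 4 in MDA-MB-231. In CT26 they fell in 8 of 15 and rose in 3. The median log2 fold changes were -0.81 and -0.28. Over all genes 25.7% and 33.5% fell and 42.6% and 22.3% rose, with medians of 0.18 and -0.06. The 4 with the smallest adjusted p were lower in each line, IRF7 (-2.34), IKBKE (-1.83), IFIH1 and DDX58 in MDA-MB-231 and Irf7 (-1.52), Zc3hav1 (-0.40), Ifih1 and Ddx58 in CT26. IFIH1, which encodes MDA5, fell from 5.95 ± 0.825 to 1.04 ± 0.207 FPKM, and DDX58, which encodes RIG-I, from 13.8 ± 1.0 to 4.63 ± 0.656 FPKM. In CT26 Ifih1 fell from 27.2 ± 2.46 to 13.8 ± 1.10 FPKM and Ddx58 from 40.4 ± 1.86 to 28.4 ± 1.30 FPKM. Interferon signal transduction genes fell in 8 of 13 and rose in 1 in MDA-MB-231 (median -0.48), and fell in 9 of 14 and rose in 3 in CT26 (median -0.28). The signalling inhibitors SOCS1 and SOCS3 went opposite ways in MDA-MB-231 (-3.00 and 1.40), and in CT26 Jak2 rose (0.44). SOCS1 read 6.95 to 9.02 FPKM in the wild type and 0.0672 to 0.260 FPKM in the knockout. It passed the filter on low values through its wild type libraries alone, so it had to be lower and is among the 8 that fell. The size of its change depends on the pseudocount. Of ubiquitin conjugation partners 6 of 15 rose and 4 fell in MDA-MB-231. In CT26 4 of 13 fell and 0 rose in limma, with 2 higher at an unadjusted p below 0.05. In MDA-MB-231 ISG15, a ubiquitin-like modifier, fell by 3.28 on the log2 scale. UBE2N, the conjugating enzyme for lysine-linked signalling chains, rose from 96.4 ± 5.85 to 292 ± 12.4 FPKM, and Ube2l6, an enzyme of ISG15 conjugation, fell in CT26 from 246 ± 15.5 to 98.7 ± 7.61 FPKM.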

How the data were processed

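The submitters' processing notes name bcl2fastq 2.18 and the aligner STAR 2.5.4a, then Cufflinks 2.2.1 with Cuffdiff, and list the builds hg38 and mm10. Annotation release and strand setting are not stated there. For each line the authors deposited 1 table of 8 libraries, in FPKM, with a p-value and q-value per gene of their own, of which q-values are quoted for a few members as theirs. Of values above 0, CT26 wild type replicate 1 and knockout replicate 4 shared 549 of 15586, and all other pairs at most 7. The depths of these libraries, read from low values, were equal, and the part of this in the shared values was not tested. From the FPKM, log2(FPKM + 1) was computed for genes with at least 1 FPKM in at least 4 of 8 libraries, and knockout was compared with wild type, 4 libraries each, in limma 3.58.1 (R 4.3.3) with a mean-variance trend, two-sided. P-values were adjusted by Benjamini-Hochberg across the genes tested in that table, at a threshold of 0.05. CD274 also had a two-sided exact permutation test.

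The members, role groups and partner lists were chosen with earlier results of these data known, so their counts are descriptions with no test of the list. Full statistics are given in each line for the 12 members with the largest absolute log2 fold change among those past the threshold without overlap of the groups, and for members of the same symbol in the other line. Genes named from a partner list are among its 4 with the smallest adjusted p in that line. Human coordinates are from GENCODE 29 by Ensembl ID (57 of 57 members found) and mouse ones from the deposited loci. Promoter windows of 300 bases are RefSeq's.

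Depth was read from FPKM values below 0.3, taken as whole multiples of 1 read, and set to fragments in MDA-MB-231 by transcript length. It covers counting precision only. The fit was tested on simulated data with 200 changed genes in each line. Alternatives were the pseudocount, the filter, upper-quartile and quantile scaling, subtraction of the median of genes within 10 Mb on either side, no trend, a replicate block and leaving out each library. Python 3.11.15 served for summaries and plots. The values of 1 leukocyte marker and 1 partner gene are not reported here.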

Additional observations from a re-analysis of the deposited data

Results flagged for a closer look

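Among 150 groups of 4 libraries of tested members, 11 had 1 library standing far from the other 3, by Dixon's criterion, which chance meets in about 1 group of 20. In the MDA-MB-231 knockout these were TRIM16L at 15.2 FPKM in replicate 4, TRIM24 at 9.63 FPKM in replicate 3, TRIM22 at 0.270 FPKM in replicate 1 and TRIM29 at 0.801 FPKM in replicate 2, the last 2 beside libraries listed at 0. In its wild type they were TRIM33 at 14.7 FPKM in replicate 1 and TRIM69 at 4.90 FPKM in replicate 4. In the CT26 knockout Trim26 stood at 27.0 FPKM in replicate 2, Trim3 at 19.2 FPKM and Trim35 at 50.9 FPKM, both in replicate 4. In the CT26 wild type Trim28 stood at 538 FPKM in replicate 4 and Trim6 at 2.65 FPKM in replicate 1.

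In 3 members every knockout library lay on one side of the wild type in MDA-MB-231 and on the other side in CT26. The log2 fold changes were 1.08 and -0.39 for TRIM14, -1.41 and 0.32 for TRIM16, and 1.01 and -0.07 for TRIM28, where the CT26 value changed sign with upper-quartile scaling. The difference between the lines was not tested.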

How the results depend on the processing

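The counts of members past the threshold stayed within 1.5 times those reported under all alternatives run, except that 7 members rose in MDA-MB-231 with upper-quartile scaling in place of 11, and the cause was not tested. With 1 library left out, 8 to 11 members rose and 14 to 16 fell in MDA-MB-231 (all genes 5858 to 6023 and 3472 to 3641), and 6 to 7 rose and 12 to 14 fell in CT26 (all genes 2275 to 2480 and 3498 to 3652). Of the values under alternatives for the members given full statistics, 520 kept direction and side of the threshold, 27 lost the call, 5 gained it and 2 reversed, both of Trim28 in CT26, at 0.022 with upper-quartile scaling and 0.012 after centring on the genes around it, where the cause was not tested. Among the other called members, Trim8 (0.33) and Trim35 (-0.14) in CT26 passed with the opposite sign after that centring.

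The deviations of same-numbered wild type and knockout libraries had correlations from -0.04 to 0.004 in MDA-MB-231 and from 0.03 to 0.08 in CT26. Those of CT26 were small but above all correlations of its differently numbered libraries, at -0.06 to 0.02. The labels do not say that a replicate number marks a shared culture, and no block was used in the main fit. With the replicate block, 10 members rose and 15 fell in MDA-MB-231 (all genes 6026 and 3622), and 6 rose and 12 fell in CT26 (all genes 2391 and 3641). In CT26 Trim2, Trim26 and Trim46 lost their calls with it. Depth limits the members below 1 FPKM, 16 in the wild type of MDA-MB-231 and 20 in CT26, for which a value of 0 cannot be told from a low level, and the pseudocount sets the size of change of low members.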
